A study of Homo sapiens with 2 samples.

Results

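The genes described here were 10 imprinted genes outside the imprinted region of 14q32: *H19*, *IGF2*, *PEG10*, *PEG3*, *SNRPN*, *MEST*, *KCNQ1OT1*, *CDKN1C*, *PLAGL1*, and *PHLDA2*. They were chosen by name, and no threshold on a measured value entered the choice. *H19* was not analysed here, so that 9 of the 10 genes, among the 33538 genes listed for both libraries, are described. HCT116, a human colorectal cancer cell line, was seeded on day 0, given 0.5 μM of decitabine (DAC) on days 1 and 3 and drug-free medium from day 5, and collected on day 7, or was mock-treated. Single-cell RNA sequencing (scRNA-seq) with a 3′ kit counted transcripts by unique molecular identifiers (UMIs). The study aimed to learn whether particular genes are fully demethylated within single cells, and what follows for cell function. Its scRNA-seq had 1 library per condition, so that no test between the conditions was possible and cells of a library were not taken as replicates. All intervals below are 95% intervals for counting error only, and do not hold the spread between cultures.

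An imprinted gene is expressed mainly from the copy inherited from the mother or from the copy inherited from the father. The difference between the copies is kept by a control region that carries DNA methylation on only the maternal or only the paternal chromosome, and this mark is copied at each cell division by the methyltransferase DNMT1. DAC is a cytosine analogue that is built into DNA, traps DNA methyltransferases, and lowers methylation as cells divide. Among the 9 genes, *CDKN1C* and *PHLDA2* are normally expressed from the maternal copy, and the other 7 from the paternal copy. The UMIs were not separated by allele, so the values below are the sum of both copies, and DNA methylation was not measured in these libraries.

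Sequencing gave 1783 mock-treated cells with 49911689 UMIs and 1751 DAC-treated cells with 59046165 UMIs, with medians of 27899 and 35340 UMIs per cell, and 12 barcodes were present in both libraries. Levels are given as counts per 10⁶ UMIs (CPM), from the sum of a gene's UMIs and of all UMIs of a library. Where a sentence gives a pair of values without naming the library, the first is the mock-treated value and the second the DAC-treated value. The cell line label was checked against markers: the epithelial genes *EPCAM*, *KRT8*, *KRT18*, and *KRT19* were detected in 77.1% of cells or more in either library, *CDH1* in 38.0% and 31.8%, and *CLDN4* in 69.5% and 36.7%, while *PTPRC* and *CD3E* of leukocytes, *PECAM1* of endothelium, and *DCN* of fibroblasts were at 0 UMIs in the mock library and at 16, 24, 46, and 31 UMIs in the DAC library. *COL1A1* of fibroblasts and *CD68* of macrophages were detected in 22.9% and 14.4% of mock-treated cells and in 33.3% and 17.1% of DAC-treated cells. Other markers of these types were present in the mock library at few UMIs: *LYZ* (10 and 31), *MS4A1* (1 and 4), *VWF* (6 and 62), and *COL3A1* (5 and 5). *COL1A2*, *LUM*, and *CDH5* had 0 UMIs in the mock library and 9, 5, and 5 in the DAC library. Their part in the results was not tested. A single cell line holds no cell type that lacks these genes, so the UMIs that free RNA adds to cells were not measured. Cells with more than 50% mitochondrial UMIs numbered 311 and 319, those above 20% and up to 50% numbered 296 and 456, and those at 20% or less numbered 1176 and 976. DAC-treated cells were thus more often above 20%, and the part of this in the differences below was not tested, other than by the values within each class.

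Promoter sequences (250 bases before to 50 bases after a transcript start, GRCh38.p14) from RefSeq were matched for 4 of the 10 genes, *PLAGL1*, *MEST*, *H19*, and *SNRPN*. Below are 3 of these windows, shown because the cytosines of CG pairs, in capitals, are the bases that carry the methylation that DAC acts on, and because these genes had different levels in mock-treated cells, with *SNRPN* at 0 UMIs and *MEST* and *PLAGL1* detected in many cells. The letters CG read the same on the other strand. The *SNRPN* window (chr15:24954737-24955036, plus strand) also holds the start of *SNURF*, the *PLAGL1* window (chr6:144008210-144008509, minus strand) also holds the start of *HYMAI*, and the *MEST* window was chr7:130491835-130492134 on the plus strand.
SNRPN: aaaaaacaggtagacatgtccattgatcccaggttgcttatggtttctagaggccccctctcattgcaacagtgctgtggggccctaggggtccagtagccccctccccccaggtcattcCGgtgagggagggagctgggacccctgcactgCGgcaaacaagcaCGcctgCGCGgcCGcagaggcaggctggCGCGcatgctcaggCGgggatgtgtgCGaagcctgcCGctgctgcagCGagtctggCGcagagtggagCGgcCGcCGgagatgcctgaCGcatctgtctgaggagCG
PLAGL1: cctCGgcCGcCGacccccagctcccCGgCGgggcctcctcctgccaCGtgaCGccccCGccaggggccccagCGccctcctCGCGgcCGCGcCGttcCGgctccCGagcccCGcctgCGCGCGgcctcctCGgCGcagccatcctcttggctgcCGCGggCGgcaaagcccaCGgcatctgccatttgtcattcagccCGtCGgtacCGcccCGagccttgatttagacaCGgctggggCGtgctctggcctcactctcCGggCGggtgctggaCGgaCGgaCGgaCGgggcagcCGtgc
MEST: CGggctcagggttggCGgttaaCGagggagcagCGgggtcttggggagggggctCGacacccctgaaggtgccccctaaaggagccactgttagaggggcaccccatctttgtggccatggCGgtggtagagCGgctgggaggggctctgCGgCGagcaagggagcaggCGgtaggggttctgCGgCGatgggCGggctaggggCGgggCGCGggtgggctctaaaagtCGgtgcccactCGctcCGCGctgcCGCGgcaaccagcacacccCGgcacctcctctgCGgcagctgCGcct
The CG pair occurred 18 times in the *SNRPN* window, 39 times in the *PLAGL1* window, and 25 times in the *MEST* window, the richest window of each gene. The 3 other *SNRPN* windows held 2, 7, and 11, and the 4 other *MEST* windows 13 to 22. Among 35116 promoter windows of the same length, 44.5%, 8.71%, and 32.03% held as many. An alternative start of *PLAGL1* (chr6:144064550-144064849) held 31 CG pairs, as many as 20.7% of windows, and the 3 others matched for this gene held 2 or 3. The UMI counts do not tell which start was used.

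In mock-treated cells, the 9 genes spanned a wide range, from 54453 UMIs of *PHLDA2* to 0 UMIs of *SNRPN* and *PEG3*. The order of the CPM was *PHLDA2*, *KCNQ1OT1*, *CDKN1C*, *PLAGL1*, *MEST*, *PEG10*, and *IGF2*, and the intervals of *CDKN1C* and *PLAGL1*, neighbours in that order, overlapped. In DAC-treated cells, the order was *PHLDA2*, *KCNQ1OT1*, *PEG10*, *PLAGL1*, *CDKN1C*, *MEST*, *IGF2*, *SNRPN*, and *PEG3*, and the intervals overlapped between *CDKN1C* and *MEST* and between *SNRPN* and *PEG3*. *PEG10* moved from the sixth place to the third. UMIs count the 3′ ends of transcripts, and were not divided by gene length.

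**Figure D1:**
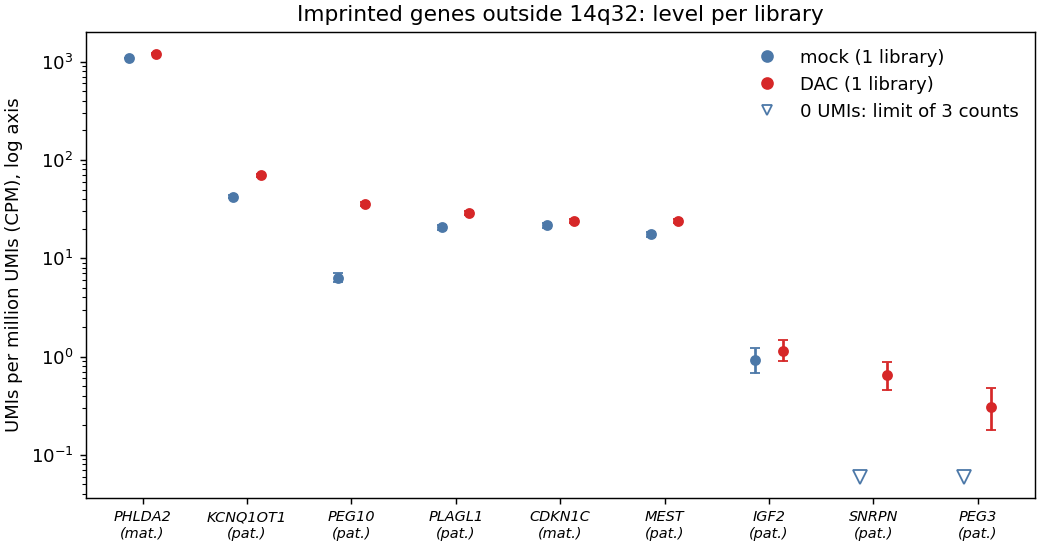
Level (CPM, log axis) of each of the 9 imprinted genes in the mock-treated library (blue) and the DAC-treated library (red), with the parental copy each gene is normally expressed from; bars are exact Poisson intervals, and open triangles mark the limit of 3 counts for genes with 0 UMIs. PEG10 stands apart by its gap, from 6.35 to 35.8 CPM, and SNRPN and PEG3 had UMIs only in the DAC-treated library.

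All 8 genes with 20 UMIs or more over both libraries had a higher CPM in DAC-treated cells, with a median log2 ratio of 0.48, and *PEG10* and *SNRPN* were 2-fold higher or more. *SNRPN* reached 20 UMIs only through the DAC library, where it was high, so the count and the median are descriptions and no support. Across all 17368 genes with 20 UMIs or more, 11134 had a ratio above 1, the median log2 ratio was 0.29, and 22.8% were at least 2-fold higher. The 2 of 8 genes past 2-fold are thus near the share over all genes, and their number is no result about imprinted genes. None of the 8 was at least 2-fold lower, against 7.86% of all genes. Median-of-ratios scaling lowers every log2 ratio by 0.18, and changes below are read against that shift.

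By parental copy, the 7 paternally expressed genes together had 4386 UMIs (87.9 CPM) without and 9481 UMIs (161 CPM) with DAC, a ratio of 1.83 (1.76 to 1.89). The maternally expressed *CDKN1C* and *PHLDA2* together had 55535 UMIs (1113 CPM) and 72544 UMIs (1229 CPM), a ratio of 1.10 (1.09 to 1.12), which lay on the log2 scale (0.14) below the median of all genes and turned to -0.041 with median-of-ratios scaling. The intervals of the summed ratios did not overlap. The maternal sum was nearly all *PHLDA2*, and *PEG10* and *KCNQ1OT1* gave most of the additional UMIs of the paternal sum, so the sums describe these genes and not a class.

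*PEG10*, a gene derived from a retrotransposon that encodes Gag-Pol-like proteins needed for the placenta, had 317 UMIs (6.35 CPM) without DAC and 2115 UMIs (35.8 CPM) with DAC, 5.64-fold higher (5.01 to 6.37). It was detected in 217 mock-treated cells (12.2%, 10.7 to 13.8) and 652 DAC-treated cells (37.2%, 35.0 to 39.5). Among DAC-treated cells, 262 had 1 UMI, 131 had 2, 124 had 3 or 4, 102 had 5 to 9, and 33 had 10 or more. In mock-treated cells 166 had 1 UMI, 29 had 2, 17 had 3 or 4, 4 had 5 to 9, and 1 had 10 or more. The cells with 3 UMIs or more thus made up 1.23% and 14.8%. The study used this level as upregulation for other genes in DAC-treated cells, but for *PEG10* 22 mock-treated cells reached it as well.

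The UMIs of *PEG10* were spread unevenly over DAC-treated cells. If they had been shared out in proportion to the total UMIs of each cell, 745 cells would have had none, and 1099 had none. In mock-treated cells, with only 317 UMIs, the numbers were 1503 and 1566. The highest 5% of cells held 59.9% (mock) and 43.5% (DAC) of the *PEG10* UMIs, so *PEG10* was uneven in both libraries. Its level was 0.812 and 11.7 CPM in cells above 50% mitochondrial UMIs, against 6.37 and 37.5 CPM at 20% or less. The part of this in the unevenness was not tested. The highest cell had 55 UMIs and the next 29. With cells of 10000 UMIs or more thinned to 10000 UMIs (1388 mock-treated and 1293 DAC-treated cells), the share with *PEG10* was 5.62% (4.47 to 6.96) and 20.9% (18.7 to 23.2). The share with 3 UMIs or more was 0.288% and 2.78% in these thinned cells. *PEG10* (ENSG00000242265) lies at chr7:94656325-94669695, and starts beside *SGCE*, a paternally expressed gene on the other strand that encodes ε-sarcoglycan. *SGCE* had 505 and 547 UMIs (log2 ratio -0.13). The other neighbours within 500 kb with 20 UMIs or more also had lower CPM in DAC-treated cells, with log2 ratios of -0.50 for *CASD1* and -0.97 for *PPP1R9A*, while *TFPI2*, an imprinted gene of the same cluster outside this window, went from 0 to 418 UMIs. *PEG10* and *SGCE* overlap at their starts, while UMIs mark the 3′ ends of transcripts.

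*SNRPN*, which encodes a protein of the small nuclear ribonucleoprotein particles of splicing and lies in the imprinted region of Prader-Willi syndrome (ENSG00000128739, chr15:24823637-24978723), had 0 UMIs in mock-treated cells. In DAC-treated cells it had 38 UMIs in 19 cells (1.09%, 0.655 to 1.69). Against the limit of 3 counts over the mock-treated library, it was 10.7-fold higher, and the counting interval of the ratio started at 8.29. In the mock-treated library, 0 of 1783 cells had a UMI. This limits the share of cells with a UMI (3 counts, 0.168%), not the share of cells that express the gene. Of the 19 cells, 9 had 1 UMI, 6 had 2, 3 had 3 or 4, and 1 had 6. These UMIs were concentrated: without the 10 cells richest in the gene, the limit was lowered from a log2 ratio of 3.42 to 1.34. It was 1.52 after thinning and 1.73 without cells above 20% mitochondrial UMIs, and under all these settings *SNRPN* fell short of 20 UMIs. DAC-treated cells with a mitochondrial share above 20% and up to 50% held 29 of the 38 UMIs, the 976 cells at 20% or less held 9, and the cells above 50% held none. The part of the mitochondrial share in this was not tested.

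At the same region, *NDN*, which encodes the growth suppressor necdin, had 0 and 169 UMIs, and was detected in 90 DAC-treated cells. Other paternally expressed genes there did not show such a rise, with 39 and 35 UMIs of *MKRN3* (log2 ratio -0.40), 0 and 3 of *MAGEL2*, and 0 and 4 of *NPAP1*. *SNRPN* and *NDN* were both detected in 5 cells, against 1.38 from the product of their shares within 10 classes of cell depth, a difference of few cells in sparse counts. *SNURF*, which shares the *SNRPN* transcript, was listed at 0 in both libraries, and how UMIs of a shared transcript were assigned is not given in the sources used here.

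*PEG3*, which encodes a zinc finger protein with roles in growth and maternal behaviour, was at 0 UMIs without DAC and at 18 UMIs with DAC. Against the limit of 3 counts it was 5.07-fold higher (log2 2.34), and the counting interval of the ratio started at 3.72. The log2 ratio against 3 counts was 0.49 without the 10 cells richest in the gene, 0.84 after thinning, and 1.37 without cells above 20% mitochondrial UMIs. *PEG3* was below 20 UMIs and was not counted among the 8 genes. The UMIs came from 15 cells (0.857%, 0.480 to 1.41), 12 with 1 UMI and 3 with 2, and no cell reached 3. After thinning, 4 of 1293 cells had *PEG3*, a level at which no change is read. *PEG3* lies in a cluster of zinc finger genes (ENSG00000198300, chr19:56810077-56840728), in which *ZNF582*, *ZNF471*, and *ZFP28* went from 0, 1, and 0 UMIs to 66, 24, and 59, while *ZNF460*, *ZNF543*, and *ZNF264* had log2 ratios of -0.58, 0.11, and 0.34. Of 19 neighbours within 500 kb with 20 UMIs or more, 11 were at least 2-fold higher, against 22.8% of all genes, and 1 was at least 2-fold lower. These neighbours were chosen after values had been seen, and most of the higher ones, among them *ZNF582*, *ZNF471*, and *ZFP28*, reached the minimum only through the DAC library, so the count is no support. *ZIM2*, which overlaps *PEG3* on the same strand, had 0 and 6 UMIs.

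*KCNQ1OT1* (ENSG00000269821, chr11:2597308-2700003), a long noncoding RNA that starts at the control region of the 11p15.5 *KCNQ1* domain and silences neighbouring genes on the paternal copy, was the paternally expressed gene with the most UMIs. It had 2120 UMIs (42.5 CPM) without DAC and 4104 UMIs (69.5 CPM) with DAC, 1.64-fold higher (1.55 to 1.73). The share of cells with a UMI was 48.6% (46.3 to 51.0) and 62.3% (59.99 to 64.6), and the share with 3 UMIs or more was 15.6% and 31.7%. The highest cells had 14 and 37 UMIs. Thinned to equal depth, 29.6% and 43.9% of cells had a UMI, so that the difference was present at equal depth as well.

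The level of *KCNQ1OT1* differed more between classes of cells within a library than between the libraries. In cells with 20% mitochondrial UMIs or less it was 38.6 and 56.0 CPM in mock- and DAC-treated cells, in cells above 20% and up to 50% it was 46.6 and 73.6 CPM, and in cells above 50% it was 89.4 and 167 CPM. It was higher in DAC-treated cells in each class. Without the cells above 20%, the log2 ratio was 0.54 in place of 0.71, and the difference in shares was 7.61 in place of 13.7 percentage points. The genes most like it across cells, by the correlation of log2 values per 10000 UMIs, were *MALAT1* (r = 0.315), *RSRP1* (0.292), and *MTRNR2L12* (0.276) among 9662 genes in 1293 DAC-treated cells, and *MALAT1* (0.226), *NEAT1* (0.202), and *DST* (0.190) among 8654 genes in 1388 mock-treated cells. *MALAT1* and *NEAT1* are noncoding RNAs held in the nucleus. These correlations share the depth and the mitochondrial share of the cells, and are weak.

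**Figure D2:**
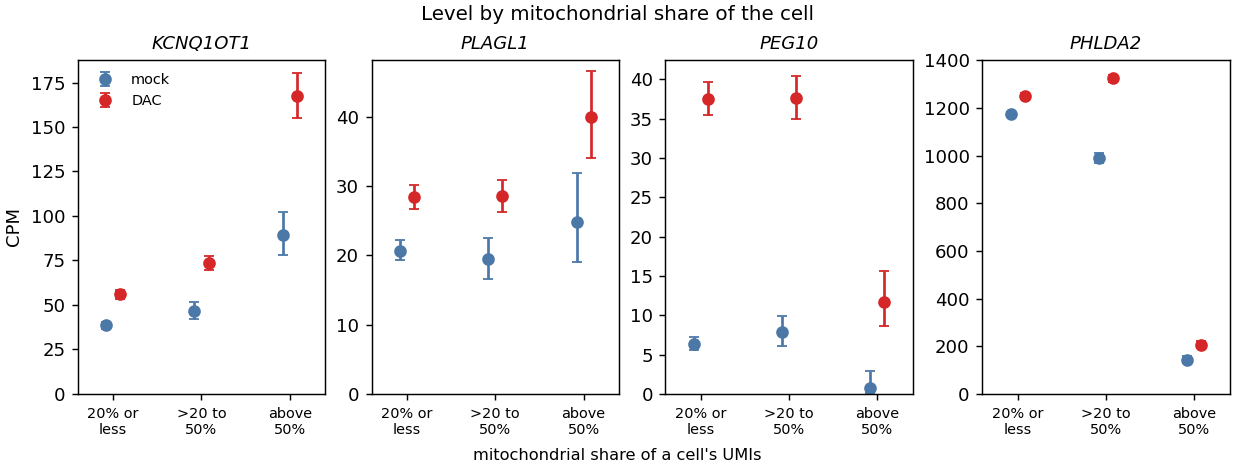
CPM of KCNQ1OT1, PLAGL1, PEG10, and PHLDA2 (each panel with its own linear axis from 0) in mock-treated (blue) and DAC-treated (red) cells of 3 classes by the mitochondrial share of their UMIs, with exact Poisson intervals. KCNQ1OT1 was highest in cells above 50%, at 89.4 and 167 CPM, where PHLDA2 was lowest, at 144 and 206 CPM, and in CPM all 4 genes were higher in DAC-treated cells in every class. For PHLDA2 at 20% or less the log2 ratio was 0.091, which the shift of 0.18 under the other scaling turns below 0.

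The genes that *KCNQ1OT1* is known to silence lie around it. *CDKN1C* (ENSG00000129757, chr11:2883213-2885775), which encodes the cyclin-dependent kinase inhibitor p57, had 1082 UMIs (21.7 CPM) and 1422 UMIs (24.1 CPM), a ratio of 1.11 (1.03 to 1.20). It was detected in 36.3% and 38.4% of cells, a difference of 2.15 percentage points whose interval (-1.08 to 5.37) held 0. The share with 3 UMIs or more was 6.06% (4.99 to 7.27) and 9.77% (8.42 to 11.3), but in thinned cells 0.576% (8 cells) and 0.696% (9 cells). The direction was not stable: the log2 ratio was 0.15, but -0.079 in thinned cells and -0.032 with median-of-ratios scaling. Other settings raised it, to 0.22 without cells above 20% mitochondrial UMIs and 0.63 as a mean of CPM over cells.

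*PHLDA2* (ENSG00000181649, chr11:2928273-2929420), which encodes a small pleckstrin homology domain protein that restrains placental growth, was the most abundant gene of the set, with 54453 UMIs (1091 CPM) and 71122 UMIs (1205 CPM), a ratio of 1.10 (1.09 to 1.12). It was detected in 88.4% and 90.3% of cells, and the median was 22 and 26 UMIs per cell. In DAC-treated cells 1 cell held 917 UMIs and the next 478, against 277 and 272 in mock-treated cells, and the highest 5% of cells held 20.4% (mock) and 23.0% (DAC) of the UMIs, where the deepest 5% of cells held 13.8% and 12.8% of all UMIs. The share with 3 UMIs or more was lower in DAC-treated cells (75.4% against 77.0%), and so was the share with 10 or more (63.0% against 68.0%). With median-of-ratios scaling the log2 ratio was -0.041 in place of 0.14. Thus *PHLDA2* had more UMIs in its highest cells and fewer cells at 10 UMIs or more.

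*PHLDA2* varied with the mitochondrial share of the cell. It was 144 and 206 CPM in mock- and DAC-treated cells above 50% mitochondrial UMIs, against 1173 and 1250 CPM in cells at 20% or less. Its level across DAC-treated cells was most like that of *TMSB10* (r = 0.736), *PFN1* (0.681), and *DYNLL1* (0.671), genes of the actin and motor cytoskeleton, and across mock-treated cells most like *PFN1* (0.562), *S100A6* (0.561), and *PFDN2* (0.560). Its correlation with *KCNQ1OT1* was -0.148 in mock-treated and -0.221 in DAC-treated cells. Its lowest correlations were with *MTRNR2L12* (-0.524) in DAC-treated and the mitochondrial gene *MT-CO3* (-0.560) in mock-treated cells. Cells of 1 library share their preparation, and depth and mitochondrial share vary with these values.

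Some neighbours in the same domain had much lower levels in DAC-treated cells. *KCNQ1*, a potassium channel gene that overlaps *KCNQ1OT1* on the other strand, had 251 UMIs without and 24 with DAC, 12.4-fold lower, with 12.2% and 1.31% of cells positive. *SLC22A18*, which encodes a membrane transporter and lies between *CDKN1C* and *PHLDA2*, had 2178 and 501 UMIs, 5.14-fold lower, with 54.6% and 21.3% of cells positive. Both are maternally expressed. *SLC22A18AS* and *CARS* were lower as well, with log2 ratios of -2.10 and -1.37. Within 500 kb of *KCNQ1OT1*, 12 genes had 20 UMIs or more, of which 2 were at least 2-fold higher and 4 at least 2-fold lower, against 22.8% and 7.86% of all genes. The higher ones, *ASCL2* and *TRPM5*, had 0 and 3 UMIs in the mock library and passed that minimum only through the DAC library. These neighbours were counted after values of the members had been seen. The sources used here do not state whether strand was used in counting, and how UMIs in the overlap of *KCNQ1OT1* and *KCNQ1* were assigned was not tested. In single cells, 19 of the 23 DAC-treated cells with *KCNQ1* also had *KCNQ1OT1*, against 17.8 from the product of shares within depth classes, and in mock-treated cells 112 of 218, against 129.

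**Figure D3:**
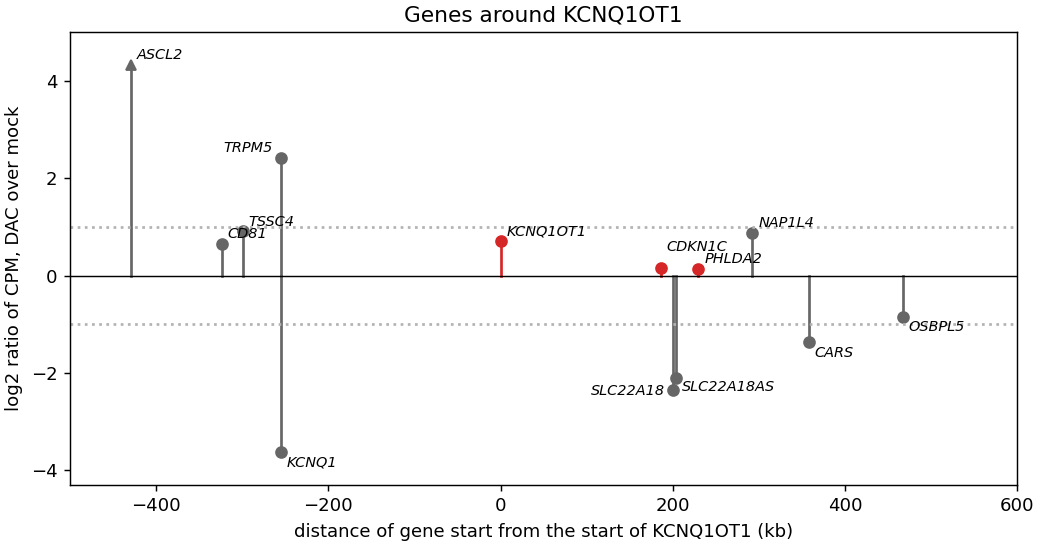
Log2 ratio of CPM (DAC-treated over mock-treated) of genes with 20 UMIs or more by the distance of their start from the start of KCNQ1OT1 (kb); red marks members of the set, the triangle is a lower limit for a gene with 0 UMIs in mock-treated cells, and dotted lines mark 2-fold. KCNQ1OT1, CDKN1C, and PHLDA2 had log2 ratios of 0.71, 0.15, and 0.14, between KCNQ1 at -3.63 and the limit of ASCL2 at 4.32. With median-of-ratios scaling CDKN1C and PHLDA2 are at -0.032 and -0.041.

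*IGF2* (ENSG00000167244, chr11:2129112-2158391), at the other imprinted domain of 11p15.5, encodes insulin-like growth factor 2, a fetal growth factor. It had 46 UMIs (0.922 CPM) and 68 UMIs (1.15 CPM), a ratio of 1.25 whose interval (0.847 to 1.86) held 1, so no difference was detectable at this depth. It was detected in 44 cells (2.47%) and 58 cells (3.31%), and only 1 DAC-treated cell, with 7 UMIs, had more than 2. A mean of CPM over cells, which gives shallow cells equal weight, set the log2 ratio at 2.34 in place of 0.32. A second entry named *IGF2* (ENSG00000284779) had 0 UMIs, and the overlapping *INS-IGF2* and the antisense *IGF2-AS* limit the assignment of so few UMIs. The UMIs of *IGF2-AS* numbered 6 and 5.

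*PLAGL1* (ENSG00000118495, chr6:143940300-144064599), which encodes a zinc finger transcription factor that restrains proliferation, had 1030 UMIs (20.6 CPM) and 1723 UMIs (29.2 CPM), 1.41-fold higher (1.31 to 1.53). It was detected in 37.8% and 45.7% of cells and had 3 UMIs or more in 4.66% (3.72 to 5.74) and 11.8% (10.3 to 13.4). The share in thinned cells was 17.4% and 23.9%. Of these cells, 5 (0.360%, 0.117 to 0.839) and 12 (0.928%, 0.480 to 1.62) had 3 UMIs or more, with overlapping intervals. The level was 20.7 and 28.4 CPM in cells at 20% mitochondrial UMIs or less, 19.4 and 28.5 CPM in those above 20% and up to 50%, and 24.8 and 39.9 CPM in those above 50%, where the DAC interval (34.0 to 46.6) lay above that of cells at 20% or less (26.6 to 30.2). Without cells above 20%, the difference in shares was 3.13 percentage points, with an interval (-1.15 to 7.41) that held 0, while the log2 ratio stayed between 0.32 and 0.51 in all alternatives tried. Of its 4 neighbours within 500 kb, *STX11* was at least 2-fold higher, with 8 and 249 UMIs, and reached 20 UMIs only through the DAC library. The share over all genes was 22.8%.

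*MEST* (ENSG00000106484, chr7:130486171-130506465), which encodes an enzyme of the α/β hydrolase fold with a role in fetal growth, had 873 UMIs (17.5 CPM) and 1415 UMIs (24.0 CPM), 1.37-fold higher (1.26 to 1.49). It was detected in 34.5% (32.3 to 36.8) and 41.1% (38.8 to 43.5) of cells, and 2.86% and 9.82% had 3 UMIs or more. In mock-treated cells 2 cells had 5 to 9 UMIs, and in DAC-treated cells 47 had 5 to 9 and 1 had 19. In thinned cells the shares were 15.6% (13.8 to 17.7) and 19.2% (17.1 to 21.4), and 3 cells of either library had 3 UMIs or more, so the difference in that class was not seen at equal depth. The level was 17.8 and 27.4 CPM in cells at 20% mitochondrial UMIs or less and 18.2 and 21.2 CPM in those above 20% and up to 50%, but in cells above 50% it was lower with DAC, at 10.2 and 7.49 CPM, with overlapping intervals (6.57 to 15.0 and 5.05 to 10.7). Its overlapping neighbour on the other strand, *COPG2*, which encodes a subunit of the coatomer coat, was lower, with 574 and 311 UMIs (log2 ratio -1.13). Among 14 genes within 500 kb, 2 were at least 2-fold higher and 5 at least 2-fold lower, against 22.8% and 7.86% of all genes. Of the higher ones, *CPA5* (2 and 24 UMIs) reached 20 UMIs only through the DAC library. These neighbours were counted after values had been seen, and the paternally expressed antisense *MESTIT1* had 7 and 11 UMIs.

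**Figure D4:**
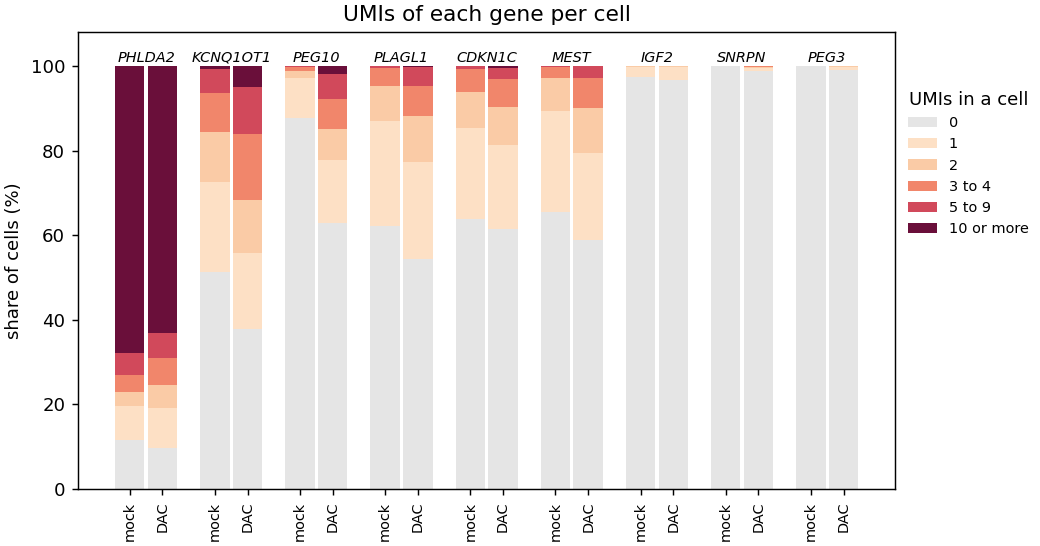
Share of cells (%) of each library by the number of UMIs of each gene in the cell, from 0 (grey) to 10 or more (darkest), for mock- and DAC-treated cells. PEG10 was absent from 87.8% of mock-treated and 62.8% of DAC-treated cells. At full depth the share of cells with 3 UMIs or more was larger in the DAC library, deeper by its median, for KCNQ1OT1, PLAGL1, CDKN1C, and MEST. For PHLDA2 the class of 10 or more was smaller (63.0% against 68.0%).

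Across genes, a cell of either library had a median of 3 of the 9 genes detected, with a maximum of 7 in mock-treated and 8 in DAC-treated cells, and 136 and 118 cells had none. In thinned cells the mean was 1.85 and 2.23. Pairs of the 9 genes were detected together about as often as the product of their shares within depth classes gives. In DAC-treated cells, *PEG10* and *KCNQ1OT1* were both detected in 513 cells against 499, *PEG10* and *CDKN1C* in 353 against 339, *PEG10* and *PLAGL1* in 394 against 396, and *MEST* and *PLAGL1* in 452 against 452. Pairs with few cells lay further off, such as *PEG3* and *SNRPN* in DAC-treated cells (1 against 0.24), *IGF2* and *PEG10* in mock-treated cells (12 against 7.49), and *CDKN1C* and *SNRPN* in DAC-treated cells (6 against 10.8). Of pairs with a neighbour at the same locus, *PEG10* and the maternally expressed *TFPI2* were both detected in 102 cells, with a counting interval of 83.2 to 124, against 84.0, and *PEG10* and *SGCE* in 232 (203 to 264) against 216. In mock-treated cells *PEG10* and *SGCE* were both detected in 82 cells (65.2 to 102) against 62.1. *KCNQ1OT1* and *SLC22A18* were both detected in 558 cells against 552 in mock-treated and 304 against 285 in DAC-treated cells. These same-locus pairs were chosen after values had been seen.

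For *PEG10*, *MEST*, *PLAGL1*, and *CDKN1C*, no gene was strongly alike across cells. In DAC-treated cells, the highest r of *PEG10* was with *BAZ1B* (0.226), *MEA1* (0.204), and *NAXE* (0.199). The highest r of *MEST* was with *RPSA* (0.274), *EIF5A* (0.271), and *MRPL11* (0.270), which serve translation in the cytoplasm or mitochondria. For *PLAGL1* it was with *NABP1* (0.164), *CHD5* (0.163), and *COL27A1* (0.162). In mock-treated cells, the highest r was 0.145 for *MEST* with *ATP5MD*, 0.119 for *PLAGL1* with *RIF1*, and 0.232 for *CDKN1C* with *H3F3A*. Correlations this weak in sparse counts are no finding.

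Other imprinted genes, 30 of a list of 32, gave a wider range. Of 21 with 20 UMIs or more, 7 were at least 2-fold higher and 3 at least 2-fold lower in DAC-treated cells, with a median log2 ratio of -0.11, against 0.29 over all genes and 0.48 over the 8 genes of the set. Over all genes, 22.8% were higher and 7.86% lower. *TFPI2*, *NDN*, *NNAT*, and *GNAS-AS1* reached 20 UMIs only through the DAC library, so the count is no support. The higher genes were *FAM50B* (68 and 1084 UMIs, 13.5-fold), *CPA4*, a carboxypeptidase gene (704 and 2256, 2.71-fold), *ZNF597* (117 and 339, 2.45-fold), *GNAS-AS1* (11 and 68, 5.23-fold), and *TFPI2*, *NDN*, and *NNAT*, which went from 0 UMIs to 418, 169, and 112. *TFPI2* encodes a protease inhibitor and *NNAT* a small membrane protein of developing brain. The lower genes were *KCNQ1*, *SLC22A18*, and *DIRAS3*, a RAS-family tumor suppressor gene (150 and 42 UMIs, log2 ratio -2.08). Of the rest, those with the most UMIs were *GNAS* (log2 ratio -0.62), *UBE3A* (-0.04), *PPP1R9A* (-0.97), *SGCE* (-0.13), and *ZDBF2* (-0.11). *GNAS* encodes the stimulatory G protein α subunit and *UBE3A* the ubiquitin ligase of Angelman syndrome. By parental copy, 3 of 11 maternally expressed genes were higher and 2 lower, and 4 of 10 paternally expressed genes were higher and 1 lower. At 14q32, *MEG3*, *MEG8*, *MEG9*, and *DLK1* went from 2, 27, 0, and 2 UMIs to 11356, 1757, 96, and 61.

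**Figure D5:**
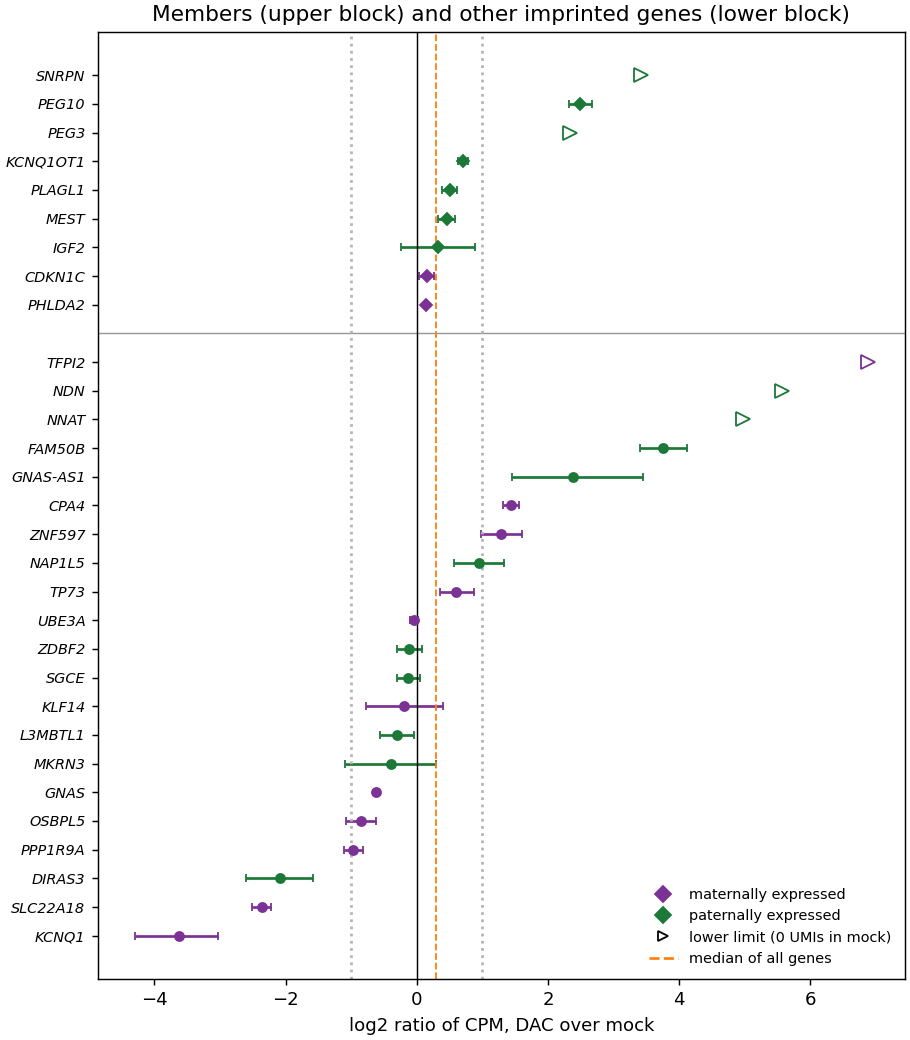
Log2 ratio of CPM (DAC-treated over mock-treated) of the 9 genes (upper block) and of other imprinted genes with 20 UMIs or more (lower block), colored by the parental copy normally expressed; bars are exact intervals for counting error, open triangles lower limits, the dashed line the median of all genes (0.29), and dotted lines 2-fold. SNRPN, PEG10, and PEG3 lie above 2-fold (PEG3, with 18 UMIs, at 0.49 without its 10 highest cells and 0.84 after thinning), CDKN1C and PHLDA2 lie left of the median of all genes (and below 0 with median-of-ratios scaling), and the lower block runs from KCNQ1 at -3.63 to limits above 4.

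Genes whose products act with those of the set are given by list. In these lists *ZFP57*, *CTCFL*, *IGF2BP1*, *IGFBP4*, *IGFBP7*, *CCND2*, and *PLAG1* had under 20 UMIs in the mock library and reached that minimum only through the DAC library, so the counts are descriptions beside the 22.8% of all genes. Of factors that maintain imprints, 3 of 11 with 20 UMIs or more were at least 2-fold higher and none 2-fold lower, with a median log2 ratio of 0.61. These were *ZFP57*, a zinc finger protein gene that protects methylated imprinting control regions (0 and 502 UMIs), *CTCFL*, a germline paralog of *CTCF* (2 and 939 UMIs), and *UHRF1*, the partner of DNMT1 at replicated DNA (867 and 2792 UMIs). *SNRPN* and *ZFP57* were both detected in 5 cells, against 5.62 from their shares. Around *IGF2*, 6 of 15 genes of the insulin-like growth factor axis were higher and none lower, with a median of 0.47. The 4 of these with the most UMIs were *IGFBP6* (2596 and 11268), *IRS2* (476 and 1136), *IGF2BP1* (16 and 287), and *IGFBP4* (0 and 182), which encode binding proteins of the growth factors or of the *IGF2* mRNA and a receptor substrate, while the receptor gene *IGF2R* had 1273 and 2093 UMIs, 1.39-fold higher.

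Beside *CDKN1C*, 6 of 10 genes of the cyclin-dependent kinases, their cyclins, and their other inhibitors were at least 2-fold higher, with a median log2 ratio of 1.48. The 4 with the most UMIs were the cyclin genes *CCND1* (23073 and 72639 UMIs), *CCNE1* (875 and 3023), and *CCND3* (475 and 1891) and the kinase gene *CDK6* (1799 and 7770). The inhibitor genes *CDKN1A* (p21) and *CDKN1B* (p27) had log2 ratios of 0.90 and -0.32, on either side of the 0.15 of *CDKN1C*. Of the paralogs of members, 4 of 11 were at least 2-fold higher and 1 lower, with a median of 0.69. *PHLDA1* and *PHLDA3*, paralogs of *PHLDA2*, went in opposite directions, with 31753 and 8360 UMIs (4.49-fold lower) and 1000 and 3887 UMIs (3.29-fold higher). *SNRPG* and *SNRPD3*, which encode core proteins of the same splicing particles as *SNRPN*, were 2.06- and 2.11-fold higher, from 9521 and 6168 UMIs to 23193 and 15367. Past 2-fold in the higher direction lay 22.8% of all genes, and none of these lists was tested against that share.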

How the data were processed

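Expression was analyzed in 1 mock-treated and 1 DAC-treated library of HCT116 cells. The authors deposited raw counts of UMIs, as whole numbers for each gene in each cell, made by mapping reads to hg38 and processing them using Cell Ranger. The annotation release and the use of strand are not given in the sources used here. All deposited cells were used, and doublets were not called because cells of a single line carry no marker of them. The members and lists were chosen with earlier results of these data known.

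For CPM, the UMIs of a gene were added up across cells and divided by all UMIs of that library. The name *IGF2* had 2 entries, and the entry with UMIs was used. Ratios had exact conditional binomial intervals, levels exact Poisson intervals, and shares of cells exact Clopper-Pearson intervals, at the 95% level, for counting error only. Ratios against 0 UMIs were computed against 3 counts over the library. They are called limits here, and leave out the counting error of the other library. A gene was counted as higher or lower at 2-fold, with 20 UMIs or more over both libraries. For comparison at equal depth, cells with 10000 UMIs or more were thinned to 10000 UMIs.

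All members were named. Of the other imprinted genes, all past 2-fold and the 5 others with the most UMIs were named, and of each further list at most the 4 past 2-fold with the most UMIs. *IGF2R*, *CDKN1A*, *CDKN1B*, *MKRN3*, *MAGEL2*, *NPAP1*, the neighbours within 500 kb, and the same-locus pairs fall outside this rule and were chosen after their values were seen. For members detected in 20% of cells or more, the 3 genes with the highest Pearson r over cells with 10000 UMIs or more were named, except that those of *CDKN1C* in DAC-treated cells are not reported here, and in mock-treated cells only the highest is given for *MEST*, *PLAGL1*, and *CDKN1C*. Positions were taken from GENCODE release 44 and promoters from RefSeq (GRCh38.p14). Python 3.11.15 with numpy 2.4.6, scipy 1.17.1, pandas 2.3.3, and matplotlib 3.10.9 was used, and the code was tested on simulated data.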

Additional observations from a re-analysis of the deposited data

How the results depend on the processing

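No paired analysis was possible because each condition had 1 library, and for the same reason no library could be left out. The number of members at least 2-fold higher, 2 of 8, was 1 without cells above 20% mitochondrial UMIs, without the 10 cells with the most UMIs of each gene, after thinning, and with a minimum of 100 UMIs, since *SNRPN* then had fewer UMIs than the minimum. It was 3 of 9, with *PEG3*, when no minimum was set. It was 2 of 7 as a mean of CPM over cells, with *IGF2* (2.34) in place of *SNRPN*. No alternative gave a member 2-fold lower. The log2 ratio of the summed maternally expressed members, 0.14, was -0.041 with median-of-ratios scaling, 0.040 after thinning, 0.093 without cells above 20% mitochondrial UMIs, 0.11 without the 5% deepest cells, 0.12 without cells under 10000 UMIs and without the 10 highest cells, 0.16 without cells above 50% mitochondrial UMIs (chosen after seeing the data), and 0.25 as a mean of CPM over cells. The paternal sum, 0.87, was 0.69 with median-of-ratios scaling, 0.93 after thinning, and 0.94 as a mean over cells. Single members changed sign in the maternal group: *CDKN1C* was -0.079 after thinning and -0.032 with median-of-ratios scaling, and *PHLDA2* was -0.041 with that scaling. The difference in the share of cells was -1.41 percentage points for *CDKN1C* after thinning, and for *PHLDA2* -1.62 with 3 UMIs or more, -1.60 after thinning, and -2.34 without cells above 20% mitochondrial UMIs. Without the 10 highest cells, the limits of *SNRPN* and *PEG3* were 1.34 and 0.49. The causes were not tested. Of the other values of single members, 50 log2 ratios and 20 shares stayed within their counting intervals, and 26 and 12 moved beyond them without changing sign, with *PEG3* at 0 cells with 3 UMIs or more. A mean of CPM over cells gives no ratio for *SNRPN* or *PEG3*. Depth limits *IGF2*, *SNRPN*, and *PEG3*, each at 1.15 CPM or less.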
